A study of Bos taurus with 32 samples.

Results

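The step from morula to blastocyst was described at single adenosines scored for N6-methyladenosine (m6A), the methyl mark on adenosines inside RNA. The members were the 60417 of 65535 listed sites that scored at least 0.1 in germinal vesicle (GV) oocytes. At each of them the blastocyst and the morula scores were set side by side, and a site was called at a stage when its score there was 0.1 or more. The members were therefore chosen by the GV score, and the sites that gained or lost a call by the blastocyst and morula scores, so counts of those classes describe the table and are not tests. Sites first seen after the oocyte stages, such as those of genes first transcribed by the embryo, were not analysed here. Whether the 65535 listed sites are all that were found is not stated. Of ribosomal protein genes, 36 of the cytosolic and 30 of the mitochondrial large subunit had members. For the small subunits these numbers were 1 and 0, so a gene absent here cannot be read as unmethylated.

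The series mapped m6A with m6A-SAC-seq in bovine oocytes and embryos. In this assay an allyl group is put on m6A, and labelled positions are misread during reverse transcription. The blastocyst and the morula libraries came from embryos of a culture that ran to day 7.5. The titles of the treated libraries of both stages add the word oocytes to the stage name, while those of the input libraries add embryo. Each stage had a treated and an input arm of 2 replicates, with 200 cells per stage and replicate and total RNA as material. All embryos of both stages were produced in vitro from slaughterhouse oocytes of follicles of 3 to 5 mm that were matured for 22 to 23 h and fertilised for 18 h with Holstein semen. The labels name no genetic change and no drug. The breed of the oocyte donors, the sex of the embryos and how many embryos gave 200 cells are not stated in the labels.

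The table holds 1 score for each stage, so replicates cannot be compared and no value below has a replicate error or a p-value. Exact binomial intervals at 95% cover only the counting of sites, and sites of 1 transcript depend on each other. Read depth and RNA level of each stage are unknown. A site at 0 can have had too little RNA or coverage for an estimate, so fewer transcripts, less coverage and less methylation cannot be told apart in any gain or loss of a call.

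m6A is written on nascent RNA by a METTL3 and METTL14 complex, mostly within DRACH motifs (D is A, G or T; R is A or G; H is A, C or T), is removed by ALKBH5 and FTO, and is bound by YTH proteins that affect splicing, translation and decay. In the morula, cells flatten on each other through E-cadherin and polarise. Outer cells then seal their tight junctions, and ion transport across them draws water inward, so that a cavity opens. The outer trophectoderm will form placenta, and the inner cell mass, which depends on SOX2, NANOG and OCT4, will form the embryo.

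The labels were set against defining markers. Of 11 trophectoderm markers, 3 had GV-called sites (CDX2, ELF3 and GATA2), and their 35 sites had 7 calls in blastocyst and 0 in morula, all 7 in GATA2. Of 5 inner cell mass markers, 3 had such sites (LIN28A, SALL4 and SOX2), with 9 calls in blastocyst and 10 in morula among 44 sites. Oocyte markers (BMP15, GDF9, ZAR1 and ZP2) had 0 calls in blastocyst and 3 in morula among 89 sites, and the cumulus genes HAS2 and STAR had 0 in both among 30. Hypoblast, sperm and blood markers had no GV-called site, so they could not be read here.

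The 5 bases around a site are the only sequence in the table. The examples below carry the main patterns: a pair of neighbouring SALL4 sites of which 1 lost its call, the 3 sites of SOX2 called in morula alone, and strong sites of DAG1, CTNNA1, OCLN and HMGCS1 called in blastocyst alone. Each 5-mer reads 5′ to 3′ on the RNA strand, with T for U, and the capital is the scored adenosine. Positions are those of the table, whose genome build is not given in the sources.
SALL4, chromosome 13, minus strand, position 79572840, coding sequence: ggAca
SALL4, chromosome 13, minus strand, position 79573035, coding sequence: ggAca
SOX2, chromosome 1, minus strand, position 85302550, coding sequence: ggAca
SOX2, chromosome 1, minus strand, position 85302403, 3′ untranslated region: ggAcg
SOX2, chromosome 1, minus strand, position 85302346, 3′ untranslated region: ggAca
DAG1, chromosome 22, minus strand, position 50616747, coding sequence: ggAca
CTNNA1, chromosome 7, plus strand, position 50254845, coding sequence: ggAca
OCLN, chromosome 20, minus strand, position 10265400, coding sequence: ggAca
HMGCS1, chromosome 20, plus strand, position 31454314, 3′ untranslated region: gaAca
In SALL4, which encodes a zinc-finger factor of the inner cell mass, the first site scored 5.69 in blastocyst and 5.65 in morula, and the second 0 in blastocyst and 5.43 in morula. In SOX2 the 3 sites in the order shown scored 3.94, 0.606 and 3.86 in morula and 0 in blastocyst. The DAG1 site scored 6.03 in blastocyst, that of CTNNA1 4.80, that of OCLN 4.72 and that of HMGCS1 1.91, and each was at 0 in morula. Scores differed by motif, so heights are comparable only between sites with the same 5 bases. The median over called ggAca sites was 2.65 in blastocyst and 2.73 in morula, and over called ggAct sites 0.638 in blastocyst and 0.598 in morula.

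**Figure D1:**
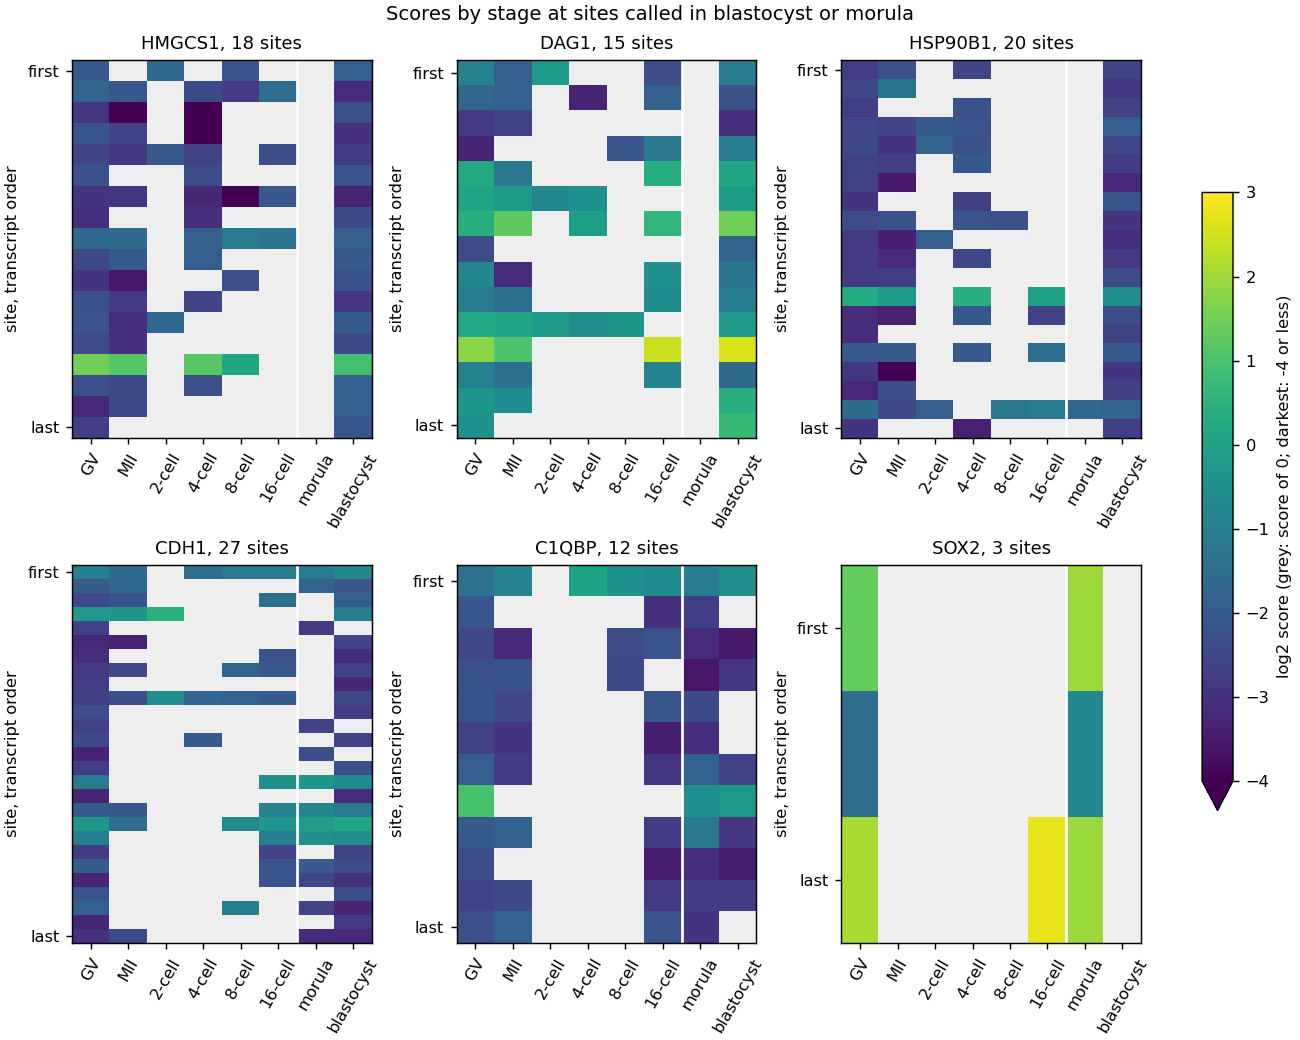
Scores of 6 genes at the sites called in blastocyst or morula, in transcript order from top to bottom, for the 8 stages from left to right; colour gives the log2 score and grey a score of 0. HMGCS1 and DAG1 are at 0 throughout the morula column and filled in blastocyst, while the 3 SOX2 sites are filled in morula and at 0 in blastocyst.

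Blastocysts had 4613 of the 60417 sites called (7.64%, interval 7.42 to 7.85) and morulae 2672 (4.42%, interval 4.26 to 4.59), a ratio of 1.73. Morula had the fewest calls of the 8 stages. There were 20625 at MII, 4467 in 2-cell, 13701 in 4-cell, 5628 in 8-cell and 3632 in 16-cell embryos. A gain is therefore a gain relative to the stage with the lowest total. A call was gained, present in blastocyst and absent in morula, at 2961 sites, which is 4.9% of the members (interval 4.73 to 5.08). A call was lost at 1020 sites, or 1.69% (interval 1.59 to 1.79). Both stages called 1652 sites, which is 35.8% of the blastocyst calls and 61.8% of the morula calls. Neither stage called the remaining 54784.

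Gain and loss were mostly between a score and 0. Of the gained sites, 2829 (95.5%) were at 0 in morula and 132 scored between 0 and 0.1. Of the lost sites, 893 (87.5%) were at 0 in blastocyst and 127 lay in between. Few sites sat close to the threshold. Just outside it, between 0.09 and 0.1, were 114 sites in blastocyst and 68 in morula, and just inside it, between 0.1 and 0.11, were 126 in blastocyst and 64 in morula. The median score of a gained site in blastocyst was 0.285 (quartiles 0.182 and 0.508), close to that of a lost site in morula, 0.292 (quartiles 0.185 and 0.492).

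Where both stages had a call, the scores were alike. The median log2 ratio of blastocyst to morula score over the 1652 sites was -0.0045, with quartiles of -0.34 and 0.31 and an order-statistic interval of -0.03 to 0.02. Within 2-fold lay 91.8% of them. Only 59 sites (3.57%) were more than 2-fold higher in blastocyst and 76 (4.6%) more than 2-fold lower. Among protein-coding genes with a known region, HDLBP, an RNA-binding protein, and RPL35A, a ribosomal protein, were among the highest 5, with a log2 ratio of 1.72 each. The lowest ratios were in HMGA1, a chromatin protein (-2.74), and in RAB10, a vesicle GTPase (-2.13).

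**Figure D2:**
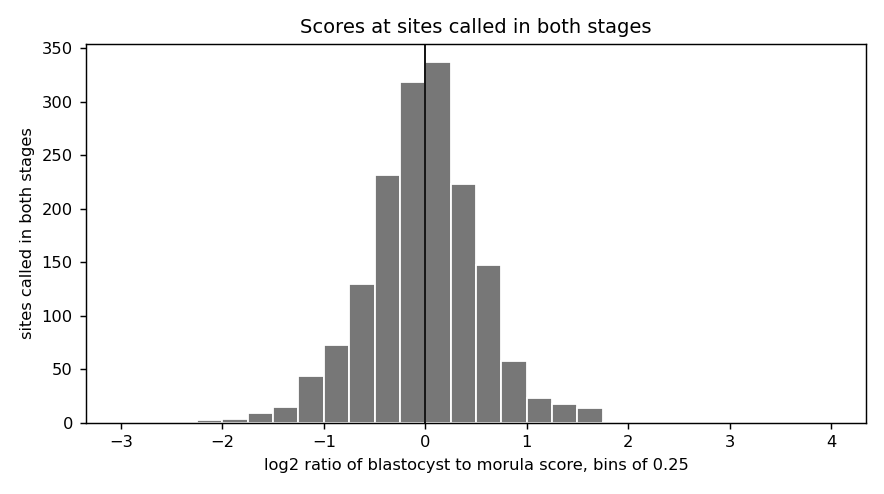
Histogram of the log2 ratio of blastocyst to morula score at the 1652 sites called in both stages, in bins of 0.25. The distribution centres on 0, with quartiles at -0.34 and 0.31, and 3 sites lie above 2 and 4 below -2.

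Genes were read as the net number of called sites, blastocyst minus morula, in the 4451 protein-coding genes with at least 3 GV-called sites. A net of 3 or more was used to speak of a gene with a gain, and a net of -3 or less of a gene with a loss. By that rule 232 genes (5.21%) had a gain and 16 (0.359%) a loss. Just outside the limits stood 200 genes at a net of 2 and 45 at -2, and just inside them 85 at 3 and 11 at -3. A net above 0 was found in 936 genes and a net below 0 in 218. Blastocyst alone had calls in 535 genes and morula alone in 123, both stages had calls in 720, and 3073 had none. Since the totals differ by 1.73, a gene whose calls scale with them has a positive net. Set against that ratio, 139 genes had at least 3 calls more than it gives and 137 at least 3 fewer, so a positive net alone does not put a gene above the general change. These shares, 5.21% of genes with a gain and 0.359% with a loss, and the ratio of 1.73 are the background for the lists that follow. A gene with many calls passes a fixed limit more easily.

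**Figure D3:**
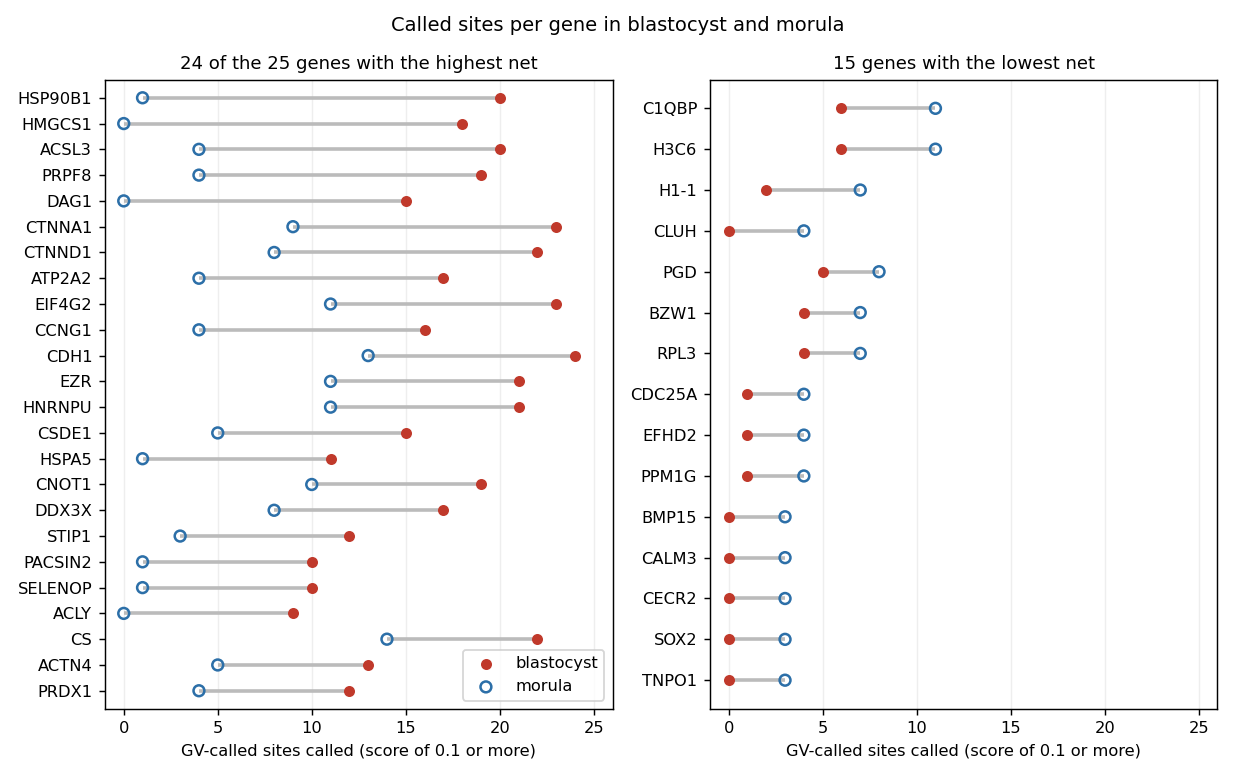
Called sites per gene, filled red for blastocyst and open blue for morula, in 24 of the 25 genes with the highest net (left) and the 15 with the lowest (right). HSP90B1, HMGCS1 and DAG1 have at most 1 call in morula and 15 to 20 in blastocyst; with a score of at least 0.2 as the threshold the direction turns for H1-1 and the net of CDH1, CNOT1, SELENOP, CS, ACTN4 and PRDX1 is under 3, with any score above 0 for PGD, and against the overall ratio for CS.

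Cell adhesion genes stood among those with the most added calls. The adherens junction and desmosome list had 88 of 252 sites called in blastocyst (34.9%) and 36 in morula (14.3%). Of its 8 genes tested, 5 had a gain and 0 a loss (5.21% and 0.359% over all genes). Its median net was 5.5 against 0 over all 4451 genes, and its ratio of calls was 2.44. CDH1, E-cadherin, had 24 of 42 sites called in blastocyst and 13 in morula, but at a score of 0.2 it had 10 in blastocyst and 8 in morula, under the limit for a gain, and it was under that limit against the overall ratio too. Its partners had the same direction. CTNNA1, which links the complex to actin, had 23 calls in blastocyst and 9 in morula, and CTNND1, which holds cadherin at the membrane, had 22 in blastocyst and 8 in morula, and at 0.2 both kept a net of 3 or more. CTNNB1, the cadherin-bound and Wnt-regulated catenin, had 12 in blastocyst and 5 in morula, and VCL, which strengthens the actin link, 5 in blastocyst and 1 in morula. CDH3, of the same list, with 35 sites, and PKP4, with 7, had no call in either stage. At the 10 sites of CDH1 that both stages called the scores were close, with a median log2 ratio of -0.27, and the tallest, in the 3′ untranslated region, scored 1.09 in blastocyst and 0.904 in morula.

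Tight junction genes had nearly all of their calls in blastocyst: 14 of 209 sites (6.70%) against 1 (0.478%) in morula. Over all protein-coding genes the shares were 7.57% in blastocyst and 4.20% in morula, so the list was low in morula and near the general share in blastocyst. TJP1, the scaffold that gathers the junction, had 7 calls in blastocyst and 0 in morula, all in coding sequence with scores between 0.179 and 0.611. OCLN, a membrane protein of the strand, had 6 in blastocyst and 1 in morula, and the morula call was at another site. Of the list's 10 genes tested, those were the only 2 with a gain (5.21% over all genes). CRB3 added 1 call, and the other genes had no call or an equal number.

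The cortex and microvilli list, proteins of the actin layer beneath the membrane, had 152 of 539 sites called in blastocyst (28.2%) and 77 in morula (14.3%), and 12 of 24 genes had a gain and 0 a loss (5.21% and 0.359% over all genes). Its ratio of 1.97 was not far from the overall 1.73. DAG1, dystroglycan, which ties the cortex to the basement membrane, had 15 calls in blastocyst, 13 of them in DRACH motifs, and 0 in morula, although 11 of its sites were called at the 16-cell stage. EZR, which links microvilli to actin at the apical pole of outer cells, had 21 of 26 sites called in blastocyst and 11 in morula, and was under the limit for a gain against the overall ratio. ACTN4, an actin cross-linker, had 13 in blastocyst and 5 in morula, but 3 in blastocyst and 3 in morula at a score of 0.2. The spectrin SPTAN1 had 5 of 93 in blastocyst and 0 in morula, while the spectrin SPTBN1, with 83 sites, had 0 in both. RDX, of the same list, had 0 of 19 in both stages. The cytoplasmic actins themselves changed little: ACTB had 14 calls in blastocyst and 13 in morula and shared 12, and ACTG1 12 in blastocyst and 11 in morula and shared 10.

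**Figure D4:**
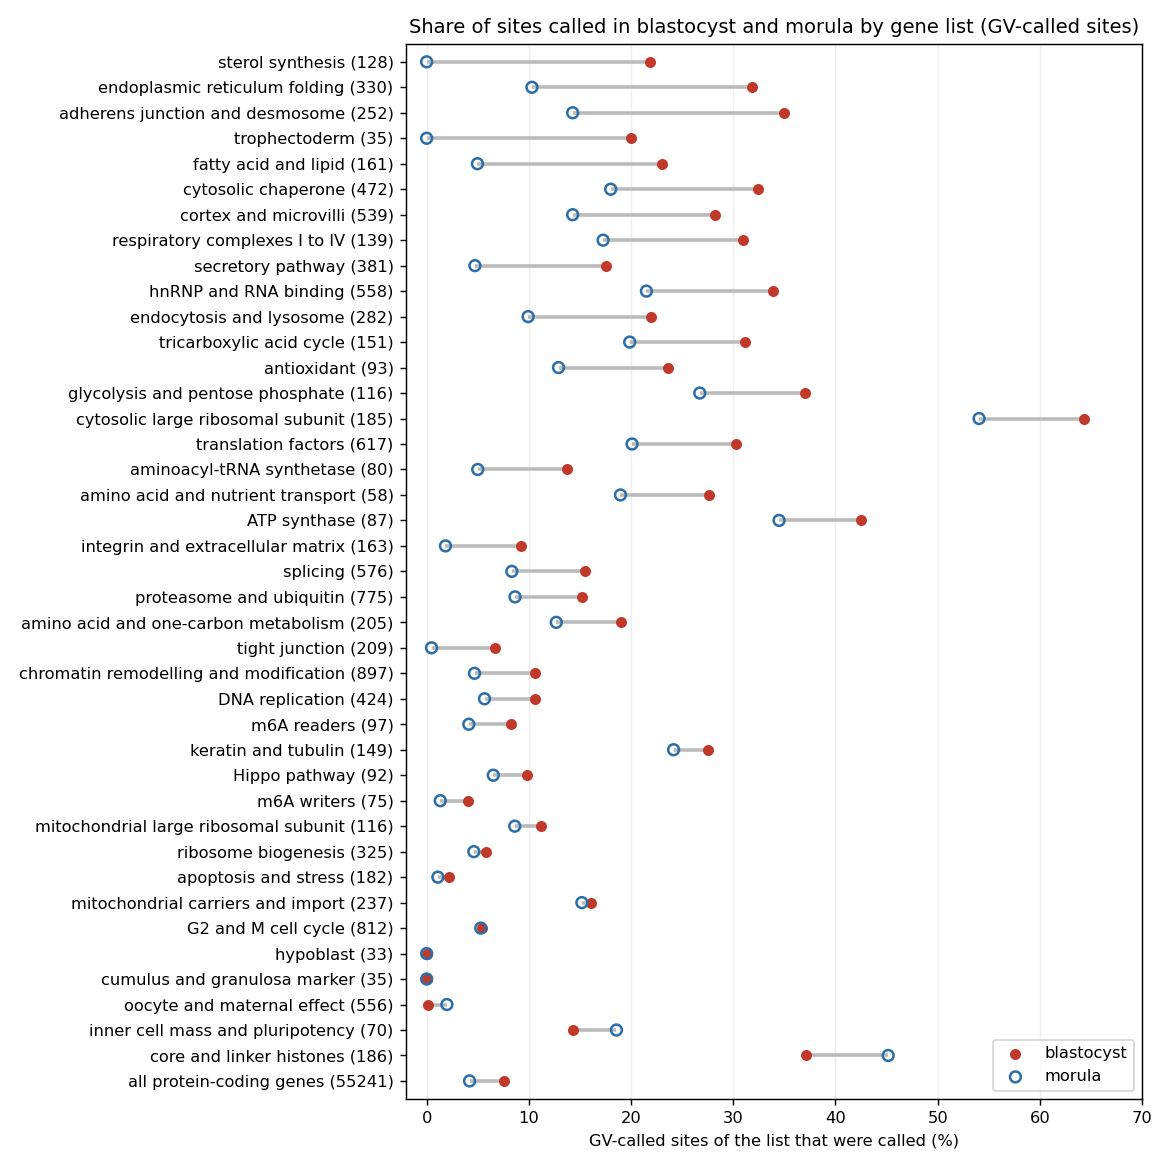
Percentage of the GV-called sites of each gene list called in blastocyst (filled red) and in morula (open blue), for lists with at least 30 sites (number in brackets) in order of the difference, with all protein-coding genes at the bottom. Sterol synthesis lies at 21.9% in blastocyst and 0% in morula, while core and linker histones lie at 37.1% in blastocyst and 45.2% in morula; with a score of at least 0.2 as the threshold the order of the histone list turns, and in DRACH motifs alone that of ribosome biogenesis.

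Integrin and extracellular matrix genes had 15 of 163 sites called in blastocyst (9.20%) and 3 in morula (1.84%). ITGB1, the beta-1 integrin, had 9 in blastocyst and 2 in morula, and FERMT2, the kindlin that activates it, 6 in blastocyst and 1 in morula. The other 6 genes tested had no net change.

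Genes of protein folding and export in the endoplasmic reticulum had several times as many calls in blastocyst as in morula. The folding list had 105 of 330 sites called in blastocyst (31.8%) and 34 in morula (10.3%), a ratio of 3.09 against 1.73 for all members. Of its 20 genes tested, 10 had a gain and 0 a loss, against 5.21% and 0.359% over all genes. HSP90B1, the HSP90 of the endoplasmic reticulum, had 20 calls in blastocyst, only 3 of them in DRACH motifs, and the single site it had in morula scored 0.295 in blastocyst and 0.315 in morula. HSPA5, the chaperone BiP, had 11 calls in blastocyst and 1 in morula with none shared, and its tallest, a taAgt site of the 3′ untranslated region, scored 2.91 in blastocyst and 0 in morula. Of the disulfide isomerases, PDIA6 had 10 calls in blastocyst and 3 in morula, and PDIA3 7 in blastocyst and 1 in morula. HYOU1, which works with BiP, had 5 in blastocyst and 0 in morula, and the lectin chaperone CANX 14 in blastocyst and 7 in morula, but CANX had 6 in blastocyst and 4 in morula at a score of 0.2 and was under the limit against the overall ratio.

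The secretory pathway had 67 of 381 sites called in blastocyst (17.6%) and 18 in morula (4.72%). Of its 30 genes tested, 21 had a net above 0 and 0 a net below 0, with 6 past the limit for a gain. Over all genes 21.0% had a net above 0, 4.90% a net below 0 and 5.21% a gain. STT3B, a catalytic subunit of the enzyme that attaches N-glycans, had 8 in blastocyst and 2 in morula. SEC61G, of the protein channel into the endoplasmic reticulum, had 6 of 7 sites called in blastocyst and 1 in morula. Endocytosis and lysosome genes had 62 of 282 called in blastocyst (22.0%) and 28 in morula (9.93%), with gains in 7 of 22 genes (5.21% over all genes) and a ratio of 2.21. Among them LAMP2, a lysosomal membrane protein, had 10 in blastocyst and 3 in morula, and CLTC, the clathrin heavy chain, 9 in blastocyst and 4 in morula, but CLTC had 4 in blastocyst and 3 in morula at a score of 0.2 and was under the limit against the overall ratio.

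Sterol synthesis genes had no call in morula. The list had 28 of 128 sites called in blastocyst (21.9%) and 0 in morula, and 3 of 9 genes tested had a gain (5.21% over all genes). HMGCS1, which makes the HMG-CoA from which sterols are built, had 18 of them, 10 in coding sequence and 8 in the 3′ untranslated region, with scores from 0.104 to 1.91. It had 26 called sites at MII, 8 in 2-cell, 17 in 4-cell, 8 in 8-cell and 4 in 16-cell embryos. MSMO1, a methylsterol oxidase, had 5 of 9 sites called in blastocyst and 0 in morula, 4 of them in DRACH motifs. ACAT2, which makes acetoacetyl-CoA, had 3 in blastocyst and 0 in morula, and at a score of 0.2 it had 2 in blastocyst and 0 in morula.

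Fatty acid and lipid genes had 37 of 161 sites called in blastocyst (23.0%) and 8 in morula (4.97%, against 4.20% over all protein-coding genes). The ratio was 4.63, with gains in 3 of 13 genes (5.21% over all genes). Most of the blastocyst calls were in ACSL3 and ACLY. ACSL1, with 19 sites, and ACACA, with 10, had no call in either stage. ACSL3, which activates long-chain fatty acids at lipid droplets, had 20 in blastocyst and 4 in morula, and all 4 morula sites were also called in blastocyst. ACLY, which makes cytosolic acetyl-CoA, had 9 weak sites in blastocyst with scores from 0.127 to 0.259, and 0 in morula. ELOVL5, a fatty acid elongase, had 3 in blastocyst and 0 in morula. PLIN2, the coat protein of lipid droplets, went the other way, with 1 in blastocyst and 2 in morula.

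Energy metabolism gave more calls in both stages and a smaller ratio. The tricarboxylic acid cycle list had 47 of 151 sites called in blastocyst (31.1%) and 30 in morula (19.9%), and its ratio of 1.57 was below that of all members. CS, citrate synthase, had 22 in blastocyst and 14 in morula, 13 of them shared, and relative to the overall ratio it lay 2.17 calls below. Glycolysis and pentose phosphate genes had 43 of 116 in blastocyst (37.1%) and 31 in morula (26.7%). Within that list PKM, pyruvate kinase, had 6 in blastocyst and 1 in morula, ENO1, enolase, 5 in blastocyst and 1 in morula, and PGD, of the pentose phosphate pathway, 5 in blastocyst and 8 in morula. At a score of 0.2 PKM and ENO1 were under the limit for a gain, with 3 and 2 calls in blastocyst and 1 each in morula. The direction in PGD turned to a net of 1 when any score above 0 counted as a call.

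Mitochondrial genes were mixed. Respiratory complexes I to IV had 43 of 139 sites called in blastocyst (30.9%) and 24 in morula (17.3%), and NDUFAB1, the mitochondrial acyl carrier protein, had 5 in blastocyst and 1 in morula, and at a score of 0.2 it had 2 in blastocyst and 0 in morula. ATP synthase genes had 37 of 87 in blastocyst (42.5%) and 30 in morula (34.5%). Mitochondrial carriers and import genes had 38 of 237 in blastocyst (16.0%) and 36 in morula (15.2%). Of 22 genes tested, 1 had a gain and 1 a loss (5.21% and 0.359% over all genes). The loss was C1QBP, a mitochondrial matrix protein, where 6 sites lost a call, 1 gained one and 5 were shared. At a score of 0.2 it had 2 calls in blastocyst and 4 in morula, no longer reaching the limit for a loss. CLUH, an RNA-binding protein for messages of mitochondrial proteins, had 0 calls in blastocyst and 4 in morula, among them a ggAca site of the 3′ untranslated region that scored 0 in blastocyst and 7.06 in morula.

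Cytosolic chaperones had 153 of 472 sites called in blastocyst (32.4%) and 85 in morula (18.0%), with gains in 12 of 24 genes and a loss in 0 (5.21% and 0.359% over all genes). The ratio of the list, 1.80, was close to the overall 1.73. STIP1, which passes clients between HSP70 and HSP90, had 12 in blastocyst and 3 in morula, and CCT2, of the chaperonin that folds actin and tubulin, 10 in blastocyst and 3 in morula. The abundant chaperones shared most of their sites. HSPA8 had 29 calls in blastocyst and 22 in morula with 19 shared, and HSP90AA1 25 in blastocyst and 19 in morula with 17 shared. Against the overall ratio both lay below it, by 8.98 and 7.80 calls, and at a score of 0.2 HSP90AA1 turned to 5 in blastocyst and 6 in morula. PRDX1, a peroxidase, had all 12 of its sites called in blastocyst and 4 in morula, with blastocyst scores of only 0.102 to 0.221, and at a score of 0.2 it had 1 in each stage.

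Genes of translation and RNA handling had many calls in both stages. Translation factors had 187 of 617 sites called in blastocyst (30.3%) and 124 in morula (20.1%), with gains in 11 of 40 genes (5.21% over all genes). Its ratio of 1.51 was below the overall 1.73. EIF4G2, an initiation factor, had 23 in blastocyst and 11 in morula, while EEF2, the translocation factor, had 19 in blastocyst and 15 in morula and lay 6.90 below the overall ratio. The hnRNP and RNA binding list had 189 of 558 in blastocyst (33.9%) and 120 in morula (21.5%), with gains in 12 of 37 genes (5.21% over all genes), and its ratio of 1.58 was also below the overall one. HNRNPU was among the 12, with 21 in blastocyst and 11 in morula, but was under the limit against the overall ratio. Splicing genes had 89 of 576 in blastocyst (15.5%) and 48 in morula (8.33%). PRPF8, the core protein of the spliceosome, gave 19 of those in blastocyst, all in coding sequence, and 4 in morula. The ribosome biogenesis list had 19 of 325 in blastocyst (5.85%) and 15 in morula (4.62%), an order that turned in DRACH motifs alone, where the difference was -2.11 percentage points.

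Cytosolic large-subunit ribosomal protein genes had, among lists with at least 30 sites, the highest share called in each stage. They had 119 of 185 in blastocyst (64.3%) and 100 in morula (54.1%), while mitochondrial ones had 13 of 116 (11.2%) and 10 (8.62%). Of the cytosolic sites, 82 were shared, with a median log2 ratio near 0 (-0.0038). RPL6 had 7 calls in blastocyst and 3 in morula, and RPL3 had 4 in blastocyst and 7 in morula, but at a score of 0.2 RPL6 had 1 in each stage and RPL3 0 in blastocyst and 2 in morula. Ribosomal protein genes have many near-identical processed copies in mammalian genomes, so the placing of their reads is uncertain.

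Chromatin genes had 95 of 897 sites called in blastocyst (10.6%) and 42 in morula (4.68%), with gains in 10 of 44 genes and a loss in 0 (5.21% and 0.359% over all genes) and a ratio of 2.26. SMARCA5, the ATPase of ISWI remodellers, had 9 in blastocyst and 2 in morula, with no site in common. KMT2C, a histone H3 methyltransferase, had 7 in blastocyst and 1 in morula, and ARID1A, of the BAF remodeller, 7 in blastocyst and 2 in morula. DNMT3B, a de novo DNA methyltransferase, had 5 in blastocyst and 0 in morula.

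Core and linker histones went the other way at the score of 0.1. They had 69 of 186 sites called in blastocyst (37.1%) and 84 in morula (45.2%). Of 23 genes tested 5 had a net above 0 and 10 a net below 0, against 21.0% and 4.90% over all genes. At a score of 0.2 the order turned, with 35 sites in blastocyst (18.8%) and 29 in morula (15.6%). H1-1, a linker histone, shows both. It had 2 calls in blastocyst and 7 in morula, yet the 2 shared sites scored higher in blastocyst, 0.316 and 0.208 against 0.185 and 0.104 in morula, and at 0.2 it had 2 in blastocyst and 0 in morula. H1-5 had 12 in blastocyst and 13 in morula, and its 11 shared sites had a median log2 ratio of 0.66. H3C6, a histone H3 gene, had 6 of 17 sites called in blastocyst and 11 in morula at 1 entry, with 14 of the 17 annotated as intronic, while a second entry had 4 of 4 in blastocyst and 3 in morula and the other one 2 of 6 in blastocyst and 3 in morula. Histone genes are near-identical copies, so counts of single histone genes are uncertain.

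Cell cycle genes of G2 and M had as many calls in both stages, 44 of 812 sites in blastocyst (5.42%) and 43 in morula (5.30%), and only 16 of those sites were shared. ANLN, which anchors the cleavage furrow, had 5 in blastocyst and 0 in morula, and RACGAP1, of the central spindle, 7 in blastocyst and 3 in morula, under the limit against the overall ratio. CDC25A, the phosphatase that opens the cell cycle, had 1 in blastocyst and 4 in morula, and at a score of 0.2 it had 1 in blastocyst and 3 in morula. DNA replication genes had 45 of 424 in blastocyst (10.6%) and 24 in morula (5.66%). LIG1, DNA ligase 1, had 9 in blastocyst and 2 in morula with none shared, but in DRACH motifs alone its net was -1.

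Lineage genes were few. GATA2, a trophectoderm transcription factor, had 7 of 22 sites called in blastocyst, 5 of them in the 3′ untranslated region, and 0 in morula and 0 in 16-cell embryos. Before that GATA2 had 14 called sites at MII, 2 in 2-cell, 10 in 4-cell and 7 in 8-cell embryos. CDX2, with 1 site, and ELF3, with 12, had no call in either stage. The inner cell mass and pluripotency list had 10 of 70 sites called in blastocyst (14.3%) and 13 in morula (18.6%), with only 3 in common. In SALL4, 5 sites gained a call, 4 lost one and 2 kept it, for 7 calls in blastocyst and 6 in morula. LIN28A, an RNA-binding protein of pluripotent cells, kept a 3′ untranslated site that scored 4.39 in blastocyst and 3.63 in morula. SOX2 lost all of its 3 calls. YAP1, the Hippo pathway co-activator, had 7 in blastocyst and 6 in morula, of which 2 were shared.

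Oocyte and maternal effect genes had 1 of 556 sites called in blastocyst (0.180%) and 11 in morula (1.98%), against 312 at MII, 192 in 2-cell, 277 in 4-cell, 170 in 8-cell and 44 in 16-cell embryos. BMP15, an oocyte growth factor, had 24 called sites at MII, 21 in 2-cell, 22 in 4-cell, 20 in 8-cell, 11 in 16-cell embryos, 3 in morula and 0 in blastocyst. Its 3 morula sites, all in coding sequence, scored 0.958, 0.547 and 0.303. BTG4, which promotes the clearance of maternal messages, had 0 in blastocyst and 2 in morula. GDF9, the partner of BMP15, with 27 sites, and ZP2, of the zona pellucida, with 19, had none in either stage.

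Besides those already given, the genes with a loss included BZW1, a translation regulator, with 4 calls in blastocyst and 7 in morula, and PPM1G, a phosphatase, with 1 in blastocyst and 4 in morula. TNPO1, a nuclear import receptor, CALM3, a calmodulin gene, and CECR2, a chromatin remodelling protein, each had 0 in blastocyst and 3 in morula. All 9 of the last sites were at 0 in blastocyst, with morula scores between 0.150 and 0.494. At a score of 0.2 BZW1 (3 in blastocyst and 4 in morula) and CALM3 (0 in blastocyst and 2 in morula) no longer reached the limit for a loss.

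The lists of the m6A machinery held few sites, and over all protein-coding genes 7.57% of sites were called in blastocyst and 4.20% in morula. Writer genes had 3 of 75 sites called in blastocyst (4.00%) and 1 in morula (1.33%), and METTL14 had none of its 3 called in either stage. ALKBH5, an eraser, had 2 of 23 in blastocyst and 3 in morula, with 1 shared site that scored 0.477 in blastocyst and 0.357 in morula. Reader genes had 8 of 97 in blastocyst (8.25%) and 4 in morula (4.12%). YTHDF3, a cytoplasmic reader, had 3 of 8 in blastocyst and 0 in morula, 1 of them a ggAca site in coding sequence that scored 5.43 in blastocyst.

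Across all members, calls were more numerous in blastocyst in every transcript region, with the highest ratio in coding sequence. Coding sequence had 2870 calls in blastocyst and 1509 in morula, a ratio of 1.90. The 3′ untranslated regions had 1039 in blastocyst and 619 in morula (1.68), 5′ untranslated regions 71 in blastocyst and 53 in morula (1.34), and introns 103 in blastocyst and 80 in morula (1.29). DRACH sites had 1670 in blastocyst and 978 in morula (1.71), and all other motifs 2596 in blastocyst and 1447 in morula (1.79).

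For coding sequence, 3′ untranslated regions and DRACH motifs, the intervals of gained and lost sites overlapped, as did those of lost and shared sites. Those of gained and shared sites did not. Of the gained sites with a known region, 72.7% (interval 71.0 to 74.4) lay in coding sequence and 23.8% in 3′ untranslated regions (interval 22.3 to 25.5), against 68.9% (interval 65.8 to 71.9) and 25.4% (interval 22.6 to 28.3) of the lost ones. Shared sites were at 65.2% (interval 62.6 to 67.8) in coding sequence and 28.8% (interval 26.3 to 31.3) in 3′ untranslated regions. Sites called in neither stage were at 71.1% (interval 70.7 to 71.5) and 22.7% (interval 22.3 to 23.0). In these regions the intervals of gained sites thus overlapped those of sites called in neither stage, and the intervals of shared sites did not. In 5′ untranslated regions and introns it was the other way round. Gained sites were at 1.67% and 1.75% there, shared sites at 1.87% and 4.12%, and sites called in neither stage at 2.85% and 3.35%. DRACH motifs made up 37.4% of the gained sites (interval 35.6 to 39.3), 37.1% of the lost (interval 34.0 to 40.3) and 42.4% of the shared (interval 39.8 to 44.9). Among sites called in neither stage they made up 33.7% (interval 33.3 to 34.2). The 5-mer with most calls was agAtg, which is not a DRACH motif, with 520 in blastocyst and 289 in morula, followed by agAct with 454 in blastocyst and 267 in morula and ggAct with 385 in blastocyst and 214 in morula.

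The gained sites were split by whether their gene had a morula call. In protein-coding genes without any morula call, 1020 gained sites in 657 genes had a median blastocyst score of 0.426, and 49.2% were DRACH. In genes that had a morula call, 1786 gained sites in 600 genes had a median of 0.234, and 31.1% were DRACH. Lost sites, split by whether their gene had a blastocyst call, differed in the same direction. Of those in genes with no blastocyst call, 193 in all, the median morula score was 0.468 and 51.4% were DRACH, against 0.265 and 33.7% for the 754 in genes with one. Scores also went with the number of calls per gene. In blastocyst the median was 0.462 in genes with 1 call and 0.199 in genes with 10 or more, and in morula 0.426 in genes with 1 and 0.191 in genes with 10 or more. Scores differed by motif, and none of these medians was compared within 1 motif. How far the motifs account for the differences in score was not tested.

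Most gained sites had been called between GV and morula before. At MII 51.0% of the gained and 53.6% of the lost sites were called, in 2-cell embryos 12.7% and 19.1%, in 4-cell embryos 35.1% and 37.2%, in 8-cell embryos 21.7% and 29.2%, and in 16-cell embryos 22.7% and 30.3%. Of the shared sites, 71.2% were called at MII, 27.9% in 2-cell, 51.7% in 4-cell, 50.4% in 8-cell and 61.4% in 16-cell embryos, and each value was above those of gained and lost sites. Sites called in neither blastocyst nor morula were lower at each of these stages. Of them 31.7% were called at MII, 6.27% in 2-cell, 20.9% in 4-cell, 7.04% in 8-cell and 2.99% in 16-cell embryos. No call at any stage from MII to 16-cell was found for 893 gained (30.2%), 242 lost (23.7%) and 152 shared sites (9.20%). The same held for 31414 (57.3%) of the sites called in neither blastocyst nor morula. The intervals of gained and lost sites did not overlap in 2-cell, 8-cell and 16-cell embryos, where lost sites were higher, and overlapped at MII and in 4-cell embryos. Within genes called in both stages they overlapped at all of these stages: in 16-cell embryos 26.9% of the gained (interval 24.8 to 29.0) and 28.8% of the lost sites (interval 25.6 to 32.1) were called, in 8-cell embryos 25.1% and 27.6%, and in 2-cell embryos 14.2% and 17.4%.

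**Figure D5:**
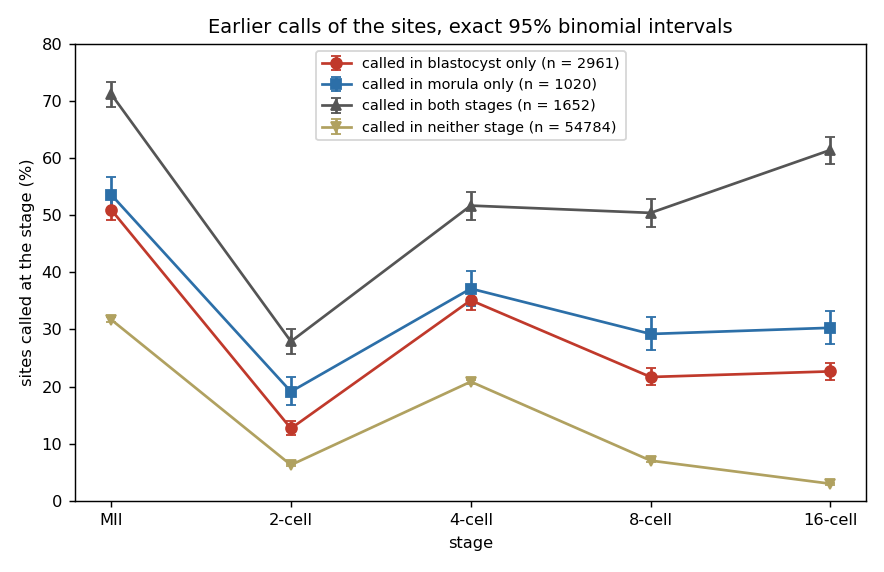
Percentage of sites called at each stage from MII to 16-cell, for sites called in blastocyst only, in morula only, in both and in neither; bars are exact 95% binomial intervals over sites. Sites called in both stages lie highest at every stage and reach 61.4% in 16-cell embryos, against 22.7% for sites called in blastocyst only and 30.3% for sites called in morula only.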

How the data were processed

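The authors deposited 1 table that gives every listed adenosine a score per stage beside its position, strand, 5-base motif, gene and transcript region; the scale of the scores is not stated, and the table holds no counts, so depth is unknown. The submitters' processing notes name Trimmomatic 0.39 and STAR 2.5.3a. How sites were called, on which build and annotation, and how arms and replicates became 1 value per stage is not given in the sources used here. Values were therefore read as pooled over the stage, with 0 value columns left unused. A region is given for 89.9% of the members, a motif for 88.9%, and a gene is missing for 7.21%.

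The members and the 46 gene lists were chosen with earlier results of these data known. Genes named were the highest 25 and lowest 15 by net called sites, the 10 with most shared sites, the top 3 and the lowest of each list with at least 10 sites, and the 5 highest and 5 lowest score ratios. Further list members (among them CTNNB1, VCL, SPTAN1, PDIA3, PDIA6, HYOU1, DNMT3B, BTG4, GDF9, ZP2, METTL14 and CDX2), and the printed sites, were chosen with their values in view. A few named items are left out of the text and figures. Software was pandas 2.3.3 with numpy 2.4.6 in Python 3.11.15, scipy 1.17.1 for Clopper-Pearson intervals, and matplotlib 3.10.9. The calculations were tested on simulated data, where 5 of 5 checks passed. Alternatives were a threshold of 0.2, any score above 0, DRACH motifs only, genes called in both stages, the overall ratio as the baseline, lists without their leading gene, and, chosen after seeing the data, entries with the same symbol counted as 1 gene.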

Additional observations from a re-analysis of the deposited data

Results flagged for a closer look

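Outside the members, large-subunit ribosomal protein genes (cytosolic and mitochondrial) had 428 listed sites that were not called in GV oocytes. Of these, 150 were called in blastocyst and 121 in morula, 51 of them in both, a signal in sites that no comparison above used. The other 4690 sites not called in GV oocytes had 180 calls in blastocyst and 97 in morula. How the placing of reads among the copies of ribosomal protein genes bears on this was not tested.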

How the results depend on the processing

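The ratio of blastocyst to morula calls stayed between 1.71 and 1.80 under the other thresholds, in DRACH motifs and in protein-coding genes. The same range held without cytosolic and mitochondrial large-subunit ribosomal protein genes, while the ratio was 1.45 in genes called in both stages. At a score of 0.2 both stages shared 854 sites, and the net turned to 2 in H1-1 and -1 in HSP90AA1, while the histone list turned to 3.23 percentage points. With any score above 0 the net of PGD was 1. In DRACH motifs alone, which by construction hold fewer sites, 1042 were gained, 350 lost and 628 shared, 52 genes had a gain and 5 a loss, LIG1 was at -1 and the ribosome biogenesis list at -2.11 points. Against the overall ratio, which subtracts the general change, 139 genes had a gain and 137 a loss, and the net was -2.17 for CS, -8.98 for HSPA8, -7.80 for HSP90AA1, -6.90 for EEF2, -1.08 for ATP5F1A and SRRM2 and -0.359 for UBE2E1. In genes called in both stages, gained sites were at 21.6% in 3′ untranslated regions, 31.1% in DRACH motifs and 26.9% called in 16-cell embryos, and lost sites at 22.6% in 3′ untranslated regions and 33.7% in DRACH motifs. Where no reason is given above, the cause was not tested. Of the named genes, 127 kept their side of the limit at 0.2, 152 with any score and 96 in DRACH motifs, while 30, 4 and 55 no longer reached it. Against the overall ratio, 120 kept it and 18 no longer reached it. Those that kept their side include named genes with neither a gain nor a loss, some without any call. The counts are therefore not shares of the genes with a gain or loss. Others newly passed the limit: 3 at 0.2, 5 with any score and 17 against the overall ratio. The difference of a list moved by 2 points or more in 20 lists at 0.2, in 13 with any score, in 27 in DRACH motifs and in 13 without the leading gene. Entries with the same symbol counted as 1 gene left 232 and 16 genes. No paired analysis was possible because the table has no replicate columns, and for the same reason no replicate could be left out. Depth per site is unknown, so no count limits can be given.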

Other observations

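Small noncoding RNAs had similar numbers of calls in both stages. Of 157 sites of small nucleolar RNAs, which guide the modification of ribosomal RNA, 105 were called in blastocyst and 102 in morula, and 91 of them in both. Small nuclear RNAs, of the spliceosome, had 29 of 51 called in blastocyst and 27 in morula, with 19 shared, 10 gained and 8 lost, and small Cajal body RNAs 10 of 11 in blastocyst and 9 in morula. Ribosomal RNA entries had 24 of 35 in blastocyst and 26 in morula, 20 of them shared. Protein-coding genes, in comparison, had 7.57% of sites called in blastocyst and 4.20% in morula.

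Some scores lay far from the others. A site of LMNB2, a nuclear lamin, scored 336 in blastocyst and 0 in morula, and 269.8 in GV oocytes. By chromosome, the ratio of blastocyst to morula calls was lowest on chromosome 23, at 1.25, with 193 calls in blastocyst and 154 in morula, and highest on chromosome 22, with 155 in blastocyst and 62 in morula. On the X chromosome it was 1.54. Without cytosolic and mitochondrial large-subunit ribosomal protein genes the ratio over all members was 1.75.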
